A study of Mus musculus with 4 samples.

Results

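Il10 encodes interleukin 10 (IL-10), and Il10ra and Il10rb encode the chains of the receptor through which it signals. These 3 genes were taken by their symbols from the 27998 genes of the count tables, so no measured value chose them, and each was described in every cell group of all 4 libraries. In GRCm38 coordinates, Il10 (ENSMUSG00000016529) lies at chr1:131019845-131024974 on the forward strand, with 5 exons, between Il19 and Mapkapk2. Il10ra (ENSMUSG00000032089) lies at chr9:45253837-45269149 on the reverse strand, and Il10rb (ENSMUSG00000022969) at chr16:91406164-91425834 on the forward strand next to Ifnar1, which encodes a chain of the type I interferon receptor. Both receptor genes have 7 exons.

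IL-10 is an anti-inflammatory cytokine made by regulatory T cells, several helper T cell subsets, macrophages and some B-lineage cells. It binds IL-10Rα, the chain that gives the receptor its specificity, and IL-10Rβ, which is shared with the receptors for IL-22 and interferon lambda, and the complex signals through JAK1, TYK2 and STAT3. In macrophages this pathway is known to dampen the production of inflammatory cytokines, and in allergic airways IL-10 from T cells is known as a brake on the response to the allergen.

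The data are single-cell RNA-seq of CD45+ cells, that is leukocytes, from the nasal mucosa of C57BL/6 mice aged 8 weeks. The Vehicle and Ribavirin libraries came from mice given vehicle or ribavirin, an antiviral nucleoside analog, and the Vehicle-OVA and Ribavirin-OVA libraries from mice that also carry the label OVA, for ovalbumin, a model allergen used to induce allergic rhinitis. No transgene or deletion is named for any group, and the number of mice behind a library is not given. The sample labels name magnetic sorting of CD45+ cells, whereas the series text names fluorescence-activated sorting. With 1 library per group there is no replicate, so every difference given here is between 2 libraries, no test was run, and every interval is a 95% interval that covers counting error only.

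The files held between 10311 and 28277 cells per library with 91742940 to 171873110 unique molecular identifiers (UMIs), each UMI standing for 1 captured transcript, and 69868 cells were kept. Levels are given as CPM, the UMIs of a gene per 1000000 UMIs of the same cells. Values listed without library names follow the order Vehicle, Vehicle-OVA, Ribavirin, Ribavirin-OVA, and paired ratios give the Vehicle pair first. Vehicle-OVA stood apart from the other libraries in its makeup, since neutrophil-like cells were 62.5% of its cells against 18.7% in Vehicle, 25.7% in Ribavirin and 24.5% in Ribavirin-OVA. These shares leave out an unnamed cluster led by Siglecf, in which 6 of 10 neutrophil markers were detected. It held 2510, 321, 1612 and 456 cells, so that the contrast in neutrophils would be smaller with it. Despite the CD45+ sort, 241 to 1339 cells per library had the genes of epithelial cells, olfactory neurons, stroma or endothelium. These non-leukocytes served as the background, and their Il10 level was 3.38 CPM in Vehicle and 1.09 CPM in Ribavirin, and 1.26 and 1.86 CPM in their partners with OVA. In Vehicle 24 of the 32 UMIs behind this level lay in 1 cell, without which it was 0.847 CPM. Pairs of libraries shared 57 to 174 cell barcodes, at most 0.909% of a library.

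To examine how much Il10 the sorted cells held, UMIs were first summed over all kept cells. Il10 was about 4 to 5 times as high with OVA as without in both pairs, from a very small number of cells. It stood at 10.1 CPM in Vehicle (1519 UMIs) and 9.84 CPM in Ribavirin (1518 UMIs), against 49.3 CPM in Vehicle-OVA (4580 UMIs) and 44.1 CPM in Ribavirin-OVA (3696 UMIs). Both libraries with OVA were therefore high and both without were low. The ratio was 4.87 (4.59 to 5.16) for Vehicle-OVA over Vehicle and 4.48 (4.22 to 4.76) for Ribavirin-OVA over Ribavirin. All 3 genes were at least 2-fold higher in the first pair, where 7.68% of the 15284 genes tested were, but Il10 alone in the second, where 5.56% of 15903 were. Between the libraries without OVA, Ribavirin over Vehicle, the Il10 ratio was 0.972 (0.904 to 1.04), where none of the 3 genes was 2-fold higher or lower against 5.15% and 0.0691% of genes. Between those with OVA, Ribavirin-OVA over Vehicle-OVA, it was 0.895 (0.857 to 0.935), and of the 3 genes Il10rb was at least 2-fold lower, as were 3.04% of genes.

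Few cells carried this signal. An Il10 UMI was found in 550 Vehicle cells (2.26%), 1010 Vehicle-OVA cells (5.86%), 494 Ribavirin cells (2.53%) and 690 Ribavirin-OVA cells (7.88%). The 10 cells with the most UMIs held 15.4%, 18.7%, 16.5% and 21.2% of the Il10 UMIs of these libraries, and a single cell held up to 42, 117, 35 and 158 of them. Without those 10 cells the levels were 8.57, 40.1, 8.22 and 34.8 CPM, so that the libraries kept the same order with and without OVA. The UMIs of 1 cell are not independent, and the counting intervals of Il10 are therefore too narrow. The receptor genes were spread over many more cells, with the 10 highest cells holding between 0.629% and 2.07% of the UMIs of either gene.

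**Figure D1:**
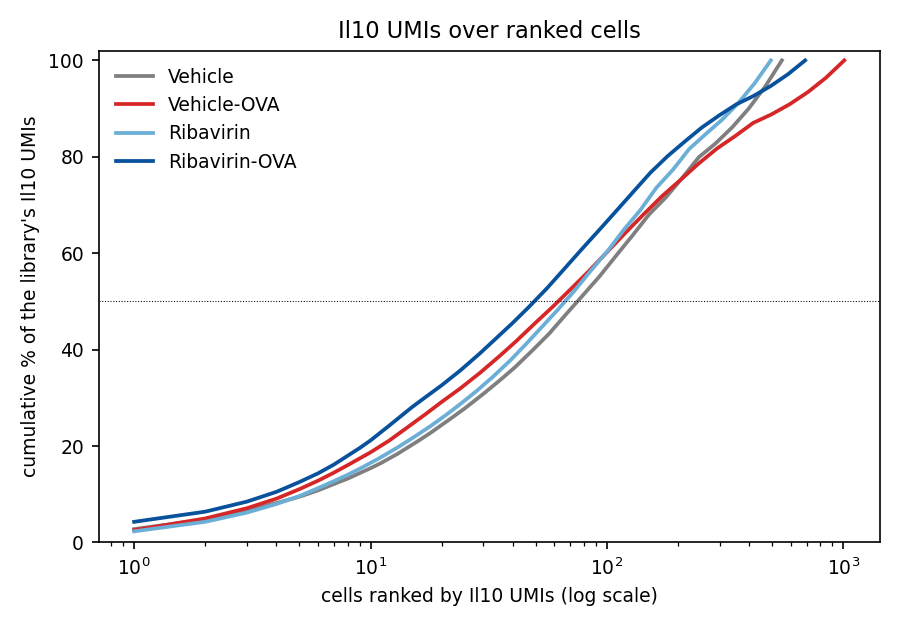
Cumulative percentage of the Il10 UMIs of each library (vertical axis) over its cells ranked by Il10 UMIs (horizontal axis, log scale), with a dotted line at 50%. In Vehicle 76 cells reached 50% of the UMIs, in Vehicle-OVA 63, in Ribavirin 67 and in Ribavirin-OVA 50.

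To find where the Il10 UMIs came from, the cells were clustered without the 3 genes and the clusters were gathered into 19 groups. A name such as macrophage-like rests on marker genes, whereas 2 groups are called by their leading genes. The Foxp3-led clusters express Foxp3, the transcription factor that defines regulatory T cells. The Il4 and Il13 cluster is led by the genes of the type 2 cytokines IL-4 and IL-13, which drive IgE and mucus production. All 141 of its cells had a UMI of a CD3 gene, 96.5% had one of Cd4 and 3.55% one of Foxp3. It also carried genes of type 2 innate lymphoid cells (ILC2), with 8 of 9 ILC2 markers detected beside 5 T-cell markers. Il1rl1 had a UMI in 90.1% of its cells and Hlf in 73.0%. By markers its best class was ILC2, and its T-cell markers kept it out of the ILC2-like group. Genes of other cell types were also found in it. The neutrophil gene S100a8 had a UMI in 66.0% of its cells. The plasma cell gene Jchain had one in 60.3% and the macrophage gene C1qa in 24.8%. Among T cell-like cells these shares were 47.7%, 61.3% and 14.2%. The cluster was deeper, with a median of 9256 UMIs per cell, against 4368.5 to 5431 by library for T cell-like cells. Its levels of these genes were 190, 98.4 and 32.8 CPM, none above the 193, 221 and 37.1 CPM of T cell-like cells. Other genes of these cell types went both ways. Csf3r, Mzb1 and Adgre1 were higher in the cluster (24.9, 15.1 and 3.28 against 17.3, 11.7 and 2.75 CPM). C1qb and Csf1r were lower. The part of such genes in its Il10 was not tested. Over the 4 libraries, the Il4 and Il13 cluster held 2454 of the 11313 Il10 UMIs, the Foxp3-led clusters 2151, macrophage-like cells 1930, plasma cell-like cells 1665, the remaining T cell-like cells 1288 and neutrophil-like cells 1251. The first 2 of these and the T cell-like cells, called the 3 groups with T-cell genes below, held 5893 together. Unnamed clusters, in which 35.4% of the cells had a UMI of a CD3 gene, held 291 Il10 UMIs and are not counted there.

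The order of the sources differed between the libraries. In Vehicle, macrophage-like cells held 39.7% of the Il10 UMIs, the Foxp3-led clusters 29.3%, plasma cell-like cells 15.7% and T cell-like cells 8.23%. In Ribavirin, the Foxp3-led clusters led with 41.2%, followed by macrophage-like cells with 26.7%, plasma cell-like cells with 14.8% and T cell-like cells with 9.55%. The same groups therefore made up the leading sources of both libraries without OVA, with the first 2 in the opposite order. In Vehicle-OVA, neutrophil-like cells held 25.5%, the Il4 and Il13 cluster 24.3%, the Foxp3-led clusters 12.9%, T cell-like cells 11.3%, macrophage-like cells 11.3% and plasma cell-like cells 8.97%. In Ribavirin-OVA, the Il4 and Il13 cluster held 36.3%, plasma cell-like cells 21.4%, T cell-like cells 13.5%, the Foxp3-led clusters 13.2%, macrophage-like cells 10.9% and neutrophil-like cells 1.08%. The libraries with OVA thus shared the Il4 and Il13 cluster as a large source and differed in the share of neutrophil-like and plasma cell-like cells.

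**Figure D2:**
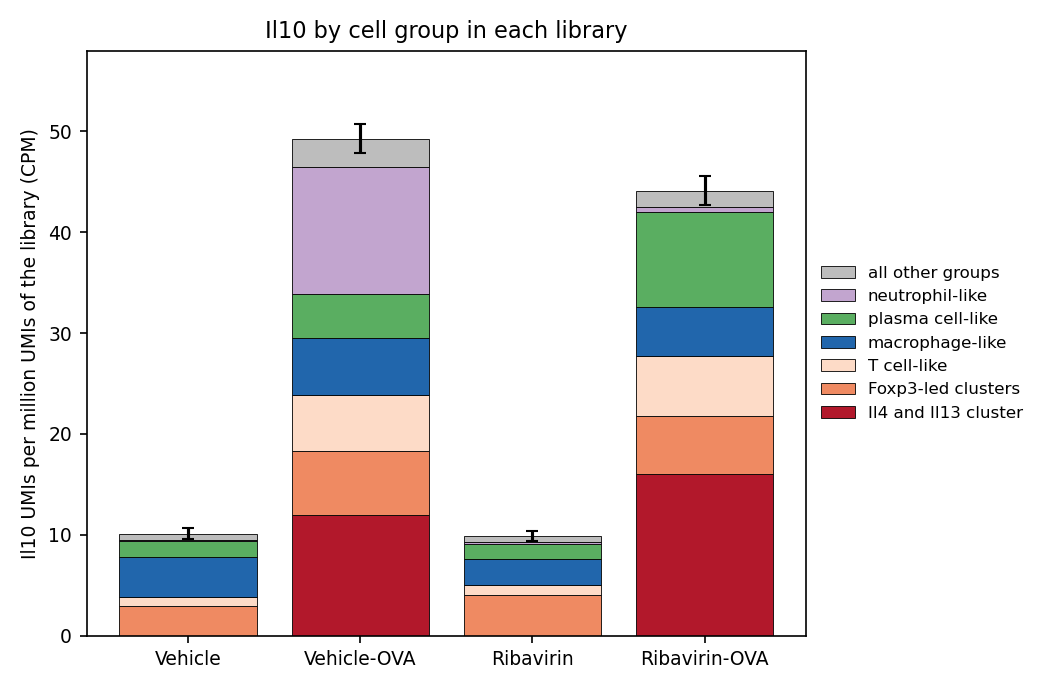
Il10 level in CPM of each library (vertical axis), stacked by the cell group that held the UMIs, for the 4 libraries (horizontal axis). Vertical lines give the 95% Poisson interval of the whole bar, and the Il4 and Il13 cluster adds 12.0 CPM in Vehicle-OVA, 16 CPM in Ribavirin-OVA and nothing in the libraries without OVA.

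The Il4 and Il13 cluster had the highest Il10 level of any group and was found only in the libraries with OVA. It held 43 cells of Vehicle-OVA, 98 of Ribavirin-OVA and 0 of the others. Its Il10 level was 2376 CPM (2239 to 2520) in Vehicle-OVA, where 93.0% of its cells had an Il10 UMI, and 1270 CPM (1203 to 1340) in Ribavirin-OVA, where 73.5% did. The level was thus higher in Vehicle-OVA, but the larger number of cells in Ribavirin-OVA gave more UMIs there, 1341 against 1113. Its cells are 0.250% and 1.12% of the cells kept in these libraries. The share of the Il10 UMIs held by this cluster was lower with a mitochondrial limit of 5% in place of 10%. It was then 23.3% instead of 36.3% in Ribavirin-OVA and 20.7% instead of 24.3% in Vehicle-OVA. The cells were clustered again in that setting, so cells left out and cells placed in other clusters cannot be told apart.

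The source was also described by the UMIs of single genes. Among all cells of the 3 groups with T-cell genes, those with a UMI of Il4, Il5 or Il13 numbered 16 in Vehicle, 47 in Vehicle-OVA, 20 in Ribavirin and 109 in Ribavirin-OVA. They held 0, 1156, 6 and 1407 Il10 UMIs, so that 25.2% and 38.1% of the Il10 UMIs of the libraries with OVA lay in these few cells. Cells of the same groups with a Foxp3 UMI numbered 578, 129, 496 and 165, and had Il10 levels of 112, 846, 164 and 471 CPM. T cells with a UMI of Ifng, the gene of the type 1 cytokine interferon gamma, had 8.99, 94.6, 26.8 and 112 CPM of Il10, and those with a UMI of Cd8a had 10.5, 87.4, 9.95 and 27.4 CPM. Cells of these groups with a UMI of Il17a, the gene of interleukin 17A, had 10.7, 149, 22.9 and 85.2 CPM of Il10. The 169 Il10 UMIs behind the value of Vehicle-OVA lay in 9 cells. A cell can have UMIs of several of these genes, so the sets overlap. In the libraries with OVA, the cells of these groups with a type 2 cytokine UMI stood at 1989 and 997 CPM, above the cells with a UMI of Foxp3, Ifng, Il17a or Cd8a. This order depended on the clusters used to choose the cells. Among all cells with a UMI of a CD3 gene, whatever their cluster, those with a type 2 cytokine UMI numbered 71 in Vehicle-OVA and 187 in Ribavirin-OVA and had 1259 and 303 CPM of Il10, against 657 and 419 CPM for those with a Foxp3 UMI. The cells with a type 2 cytokine UMI were thus the higher of the 2 in Vehicle-OVA and the lower in Ribavirin-OVA, and they held 27.3% and 39.7% of the Il10 UMIs of these libraries. ILC2-like cells, named after the innate lymphoid cells that also make type 2 cytokines, held only 0, 3, 1 and 9 Il10 UMIs among 104, 49, 93 and 76 cells. The Il4 and Il13 cluster, which carried ILC2 markers as well as T-cell genes, is not counted among them.

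The Foxp3-led clusters had the highest Il10 level without OVA and the next to highest with it. There were 685 of these cells in Vehicle, 153 in Vehicle-OVA, 544 in Ribavirin and 182 in Ribavirin-OVA. Il10 stood at 142 CPM (129 to 156), 787 CPM (725 to 854), 213 CPM (197 to 230) and 489 CPM (446 to 534) in the same order. The ratio with OVA over without was 5.54 (4.89 to 6.28) in the Vehicle pair and 2.30 (2.04 to 2.59) in the Ribavirin pair, while 12.3% and 10.6% of the genes tested in these cells were at least 2-fold higher. The share of cells with an Il10 UMI moved less, from 19.0% to 37.3% and from 25.2% to 28.6%, whereas the mean number of Il10 UMIs in a positive cell went from 3.42 to 10.4 and from 4.57 to 9.40. With OVA, most of these Il10 UMIs lay in 1 cluster that had Il1rl1, the gene of the IL-33 receptor, among its 10 leading genes. The Il10 level of that cluster was 645 CPM in 115 cells of Vehicle-OVA and 592 CPM in 141 cells of Ribavirin-OVA. The libraries without OVA had only 6 and 10 cells in that cluster. Because different clusters held most of the Foxp3-led cells with and without OVA, the ratios compare different clusters.

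The remaining T cell-like cells showed a larger ratio than the Foxp3-led clusters. Il10 stood at 5.19 CPM in Vehicle and 8.90 CPM in Ribavirin, against 96.9 CPM in Vehicle-OVA and 74.5 CPM in Ribavirin-OVA, and the libraries with OVA did not overlap those without. The ratio was 18.7 (15.3 to 22.9) in the Vehicle pair and 8.37 (6.95 to 10.1) in the Ribavirin pair, against 14.9% and 11.6% of genes at least 2-fold higher. A cluster led by Tnfsf8 and Il21, the latter encoding a cytokine that helps B cells, held 255 Il10 UMIs in 93 cells of Vehicle-OVA and 255 in 85 cells of Ribavirin-OVA, at 395 and 349 CPM. It had 1 cell in Vehicle and 0 in Ribavirin, so the clusters behind these ratios differ between the libraries, and without it the ratios were 10.8 (8.69 to 13.5) and 4.6 (3.73 to 5.68). A cluster led by genes of dividing cells held another 168 and 151. The Il17a-led cluster, the largest T-cell cluster, held 20, 13, 31 and 26 Il10 UMIs among 2577, 339, 1196 and 362 cells. The UMIs of the 3 groups with T-cell genes were also summed, leaving out the unnamed clusters. The Il10 ratio was then 16.1 (14.7 to 17.7) and 6.64 (6.12 to 7.21), against 14.0% and 10.5% of genes at least 2-fold higher. As the mean of single-cell levels instead of pooled UMIs, the first of these was 3.35 in place of 4.01 on the log2 scale.

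Summed over the 4 libraries, macrophage-like cells held the most Il10 UMIs among groups named from markers, although in both libraries with OVA other such groups held more, and their Il10 level was somewhat higher with OVA. They held 603, 517, 406 and 404 Il10 UMIs in 4609, 2215, 3406 and 1484 cells. The level was 13.5 CPM in Vehicle and 11.8 CPM in Ribavirin, against 20.7 CPM in Vehicle-OVA and 22.3 CPM in Ribavirin-OVA. The ratio was 1.53 (1.36 to 1.73) in the Vehicle pair and 1.88 (1.64 to 2.17) in the Ribavirin pair, so Il10 was not 2-fold higher in either, where 8.99% and 7.30% of the genes tested were. As the mean of single-cell levels, the differences were 1.04 and 1.53 on the log2 scale in place of 0.62 and 0.91, which is past 2-fold in both pairs. The share of macrophage-like cells with an Il10 UMI was 3.93%, 8.04%, 3.73% and 8.36%, and 0.869%, 2.13%, 0.470% and 1.69% after every cell was thinned to 1000 UMIs, against at most 0.433% in the thinned non-leukocytes. UMIs of CD3 genes were found in 5.62% to 8.84% of macrophage-like cells with an Il10 UMI and in 4.66% to 8.13% of those without.

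The macrophage-like cells fell into clusters that differed in Il10 and in their occurrence with OVA. The largest, led by Cxcl9, an interferon-induced chemokine gene, held 3728 cells of Vehicle and 2734 of Ribavirin and had 7.11 and 7.64 CPM of Il10. A cluster led by Fcrls, Ccl12 and Ccl7, of 850 and 613 cells in these libraries, had 43.2 and 26.0 CPM. Without OVA, Il10 was thus several times as high in the Ccl12 and Ccl7 cluster as in the Cxcl9 cluster. The cluster led by Ccl24, Arg1 and Retnla, genes of alternatively activated macrophages, held 1912 cells of Vehicle-OVA and 1264 of Ribavirin-OVA and had 17.6 and 23.6 CPM. Different clusters therefore made up most of the macrophage-like cells with and without OVA. Over the libraries, the Cxcl9 cluster held 259, 52, 213 and 6 Il10 UMIs in 3728, 212, 2734 and 130 cells. The Ccl12 and Ccl7 cluster held 338, 79, 151 and 27 in 850, 91, 613 and 90 cells. The Ccl24 cluster held 6, 386, 42 and 371 in 31, 1912, 59 and 1264 cells. Within clusters, Il10 UMIs per cell were thus not higher with OVA in every cluster and pair.

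Plasma cell-like cells, the antibody-secreting B-lineage cells, held between 8.97% and 21.4% of the Il10 UMIs of a library, and more Il10 per UMI with OVA. Their Il10 level was 16.4 CPM in Vehicle and 26.3 CPM in Ribavirin, against 81.9 CPM in Vehicle-OVA and 72.8 CPM in Ribavirin-OVA, and an Il10 UMI was found in 10.8%, 46.1%, 18.1% and 45.2% of the cells. The libraries with OVA were again above those without. The ratio was 5.00 (4.25 to 5.88) and 2.77 (2.39 to 3.23), in a group where 18.6% and 20.7% of all genes were at least 2-fold higher. After thinning to 1000 UMIs the shares were 1.11%, 5.90%, 1.95% and 7.10% with median depths of 10112, 16561, 12605 and 18688 UMIs per cell. These ratios compare different clusters, since 1 cluster held 1084, 2, 515 and 7 of the cells and another 9, 207, 15 and 315. A cluster of dividing cells, with 171, 62, 84 and 185 cells, had 21.4, 63.2, 34.9 and 86.9 CPM of Il10, and held 483 of the 791 Il10 UMIs of Ribavirin-OVA. B cell-like cells, in contrast, held only 4, 25, 1 and 6 Il10 UMIs.

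Neutrophil-like cells carried Il10 almost only in Vehicle-OVA. In Vehicle-OVA, 1168 Il10 UMIs were found among 10766 of them, against 14 among 4559 in Vehicle, 29 among 5021 in Ribavirin and 40 among 2147 in the library with both ribavirin and OVA. The levels were 1.17, 33.2, 1.75 and 5.19 CPM, of which those of Vehicle and Ribavirin lay within the range of the non-leukocytes over the libraries. The ratio was 28.5 (16.9 to 52.2) in the Vehicle pair, where 6.42% of the genes in these cells were at least 2-fold higher, and 2.97 (1.8 to 4.97) in the Ribavirin pair, where 13.2% were. A cluster led by Csf3, Cxcl3 and Serpinb2 held 827 of the 1168 UMIs, and 3737 of its cells came from Vehicle-OVA against 4, 87 and 105 from Vehicle, Ribavirin and Ribavirin-OVA. A cluster that is mostly of 1 library cannot be told apart from that library. Among the neutrophil-like cells of Vehicle-OVA with an Il10 UMI, 3.22% also had a UMI of a CD3 gene, against 2.32% of those without.

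The other groups held few Il10 UMIs. Monocyte-like cells held 5 to 17 per library, conventional dendritic cell (cDC)-like cells 3 to 11, plasmacytoid dendritic cell (pDC)-like cells 1 to 12 and NK-like cells 1 to 15, where 13 of the 15 lay in 1 cell of Vehicle. Mast cell-like cells, with 5 to 19 cells per library, held 1 UMI in all, and basophil-like cells, with 6 to 26 cells, held 0. For basophil-like cells, 0 of 26 cells in Ribavirin-OVA allows a share of up to 11.5% with an Il10 UMI, and the limits are higher in the other libraries. Of the 192 Il10 UMIs in unnamed clusters of Vehicle-OVA, 90 lay in 1 cell.

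Between the drug groups the Il10 levels of single groups differed in both directions. For Ribavirin over Vehicle, the ratio was 1.5 (1.33 to 1.70) in the Foxp3-led clusters, 1.71 (1.34 to 2.19) in T cell-like cells, 1.60 (1.33 to 1.93) in plasma cell-like cells and 0.874 (0.769 to 0.993) in macrophage-like cells. For Ribavirin-OVA over Vehicle-OVA, the ratios in the same groups were 0.621 (0.549 to 0.701), 0.769 (0.678 to 0.871), 0.888 (0.787 to 1.00) and 1.08 (0.942 to 1.23), and 0.156 (0.111 to 0.214) in neutrophil-like cells. The Foxp3-led clusters and T cell-like cells thus held more Il10 per UMI in Ribavirin than in Vehicle and less in Ribavirin-OVA than in Vehicle-OVA. These ratios also compare different clusters. A Foxp3-led cluster had 77 cells of Ribavirin and 0 of Vehicle, and a T cell-like cluster 256 and 1. The Foxp3-led cluster with Il1rl1 held 365 Il10 UMIs in 115 Vehicle-OVA cells and 464 in 141 Ribavirin-OVA cells. Another held 100 in 11 and 4 in 2 cells, and no other Foxp3-led cluster had more than 11 cells in either library.

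To separate how much Il10 a group held per UMI from how common the group was, the difference of the all-cell CPM was split into both parts. In the Vehicle pair the difference of 39.1 CPM was made up of 37.1 CPM from levels within groups, 12.0 CPM from the Il4 and Il13 cluster, which Vehicle lacked, and -9.93 CPM from changed shares of the groups. In the Ribavirin pair the difference of 34.2 CPM was made up of 18.3, 16 and -0.0915 CPM. The Il4 and Il13 cluster thus accounted for 30.6% and 46.7% of the differences, neutrophil-like cells for 31.9% and 0.844%, and plasma cell-like cells for 7.22% and 23.3%. The part from levels also holds changes in the clusters that make up a group, which were not separated. The neutrophil-like cluster led by Csf3 had 4 cells in Vehicle and 3737 in Vehicle-OVA, with 0 and 827 Il10 UMIs. A plasma cell-like cluster had 9 and 207 cells in these libraries, with 1 and 299 Il10 UMIs. With both the neutrophil-like cells and the Il4 and Il13 cluster left out, the log2 ratios were 1.88 and 1.51 in place of 2.28 and 2.16. Leaving out the cluster alone gave nearly the same values, whereas leaving out neutrophil-like cells alone raised the log2 ratio of the Vehicle pair. A group that has more UMIs per cell and a group that has more cells cannot be told apart in the CPM of a whole library.

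The receptor was read next, beginning with Il10ra, the chain that binds IL-10. Over all cells, Il10ra stood at 68.2 CPM in Vehicle and 65.9 CPM in Ribavirin, against 192 CPM in Vehicle-OVA and 101 CPM in Ribavirin-OVA, and the ratio with OVA over without was 2.82 (2.75 to 2.89) and 1.53 (1.49 to 1.57). Vehicle-OVA stood above the other 3. Neutrophil-like cells accounted for 85.2% of the difference in the Vehicle pair, and 64.1 of their 105.9 CPM came from their larger share of the library. The unnamed cluster led by Siglecf is not counted in that share. Without neutrophil-like cells the log2 ratios were 0.96 and 0.75 in place of 1.5 and 0.61.

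By group, Il10ra was highest in myeloid cells, ILC2-like cells and the Il4 and Il13 cluster. Monocyte-like cells ranged from 135 to 256 CPM over the libraries, neutrophil-like cells from 124 to 306 CPM, macrophage-like cells from 122 to 201 CPM and the ILC2-like cells of the 3 libraries with at least 50 of them from 110 to 230 CPM. The Il4 and Il13 cluster had 181 CPM in Vehicle-OVA and 201 CPM in Ribavirin-OVA. Neighbors in this order often did not differ beyond counting error, as neutrophil-like, macrophage-like and ILC2-like cells in Vehicle and monocyte-like and ILC2-like cells in Ribavirin-OVA. T cell-like cells had 10.4 to 68.4 CPM, and plasma cell-like cells had the lowest levels among leukocytes, from 4.8 to 20.3 CPM, close to the 5.47 to 17.5 CPM of the non-leukocytes.

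With OVA, Il10ra was higher in each of the 10 leukocyte groups compared, most of all in T cell-like cells. T cell-like cells had 10.4, 56.4, 11.7 and 68.4 CPM, with ratios of 5.43 (4.58 to 6.45) and 5.87 (4.94 to 6.98) in the Vehicle and Ribavirin pairs. The Foxp3-led clusters had 39.9, 105, 39.8 and 107 CPM, with ratios of 2.64 (1.96 to 3.52) and 2.69 (2.05 to 3.52). The levels were thus alike in the 2 libraries without OVA and in the 2 with it. The Il17a-led cluster, at 6.27 CPM of Il10ra over all libraries, held 2577 of 4410 T cell-like cells in Vehicle and 339 of 943 in Vehicle-OVA. In Ribavirin it held 1196 of 2599 and in Ribavirin-OVA 362 of 1013. As for Il10, the receptor ratios of T cell-like, Foxp3-led, macrophage-like and plasma cell-like cells thus compare different clusters. In macrophage-like cells the ratios were 1.49 (1.43 to 1.55) and 1.59 (1.52 to 1.67), while the median gene of these cells was 0.22 and 0.25 higher on the log2 scale. Ratios in monocyte-like cells were 1.55 and 1.89, in cDC-like cells 1.79 and 1.91, in pDC-like cells 1.76 and 1.5, in NK-like cells 2.10 and 1.41 and in B cell-like cells 2.18 and 2.06. Plasma cell-like cells had ratios of 4.23 (3.09 to 5.82) and 2.17 (1.54 to 3.1) from low levels. In neutrophil-like cells the ratios were 2.47 (2.34 to 2.61) and 1.17 (1.10 to 1.25), where the median gene differed by -0.39 and 0.45 on the log2 scale, so that Il10ra stood above the median gene in the first pair and below it in the second.

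**Figure D3:**
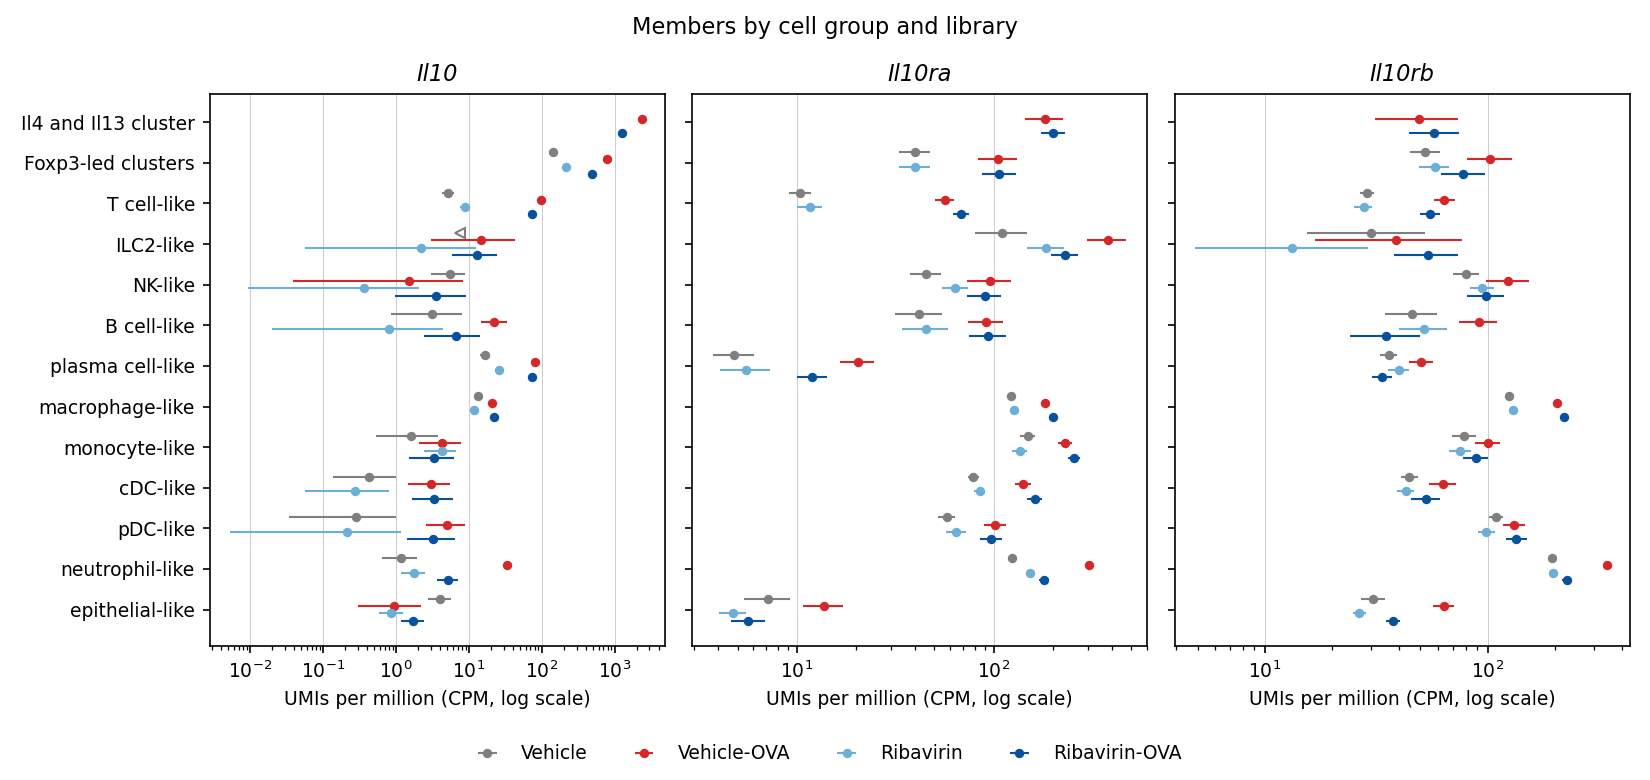
Level of Il10, Il10ra and Il10rb (horizontal axes, CPM, log scale) in 13 cell groups of the 4 libraries, with 95% Poisson intervals; an open triangle marks the limit that 0 counts allow. Il10 spans from under 1 CPM to 2376 CPM with the highest points in the Il4 and Il13 cluster and the Foxp3-led clusters. Il10ra is highest in monocyte-like, neutrophil-like, macrophage-like and ILC2-like cells and the Il4 and Il13 cluster, and Il10rb in neutrophil-like and macrophage-like cells.

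Il10rb, the shared chain, was more even across groups and was highest in neutrophil-like and macrophage-like cells. Over all cells it stood at 84.7 CPM in Vehicle and 79.1 CPM in Ribavirin, against 214 CPM in Vehicle-OVA and 106 CPM in Ribavirin-OVA, with ratios of 2.52 (2.47 to 2.58) and 1.34 (1.3 to 1.37). Neutrophil-like cells accounted for 89.0% of the difference in the Vehicle pair, and macrophage-like cells for 70.9% in the Ribavirin pair. With neutrophil-like cells left out, the difference in the Vehicle pair was 0.84 on the log2 scale in place of 1.34. Neutrophil-like cells had 195 to 345 CPM, macrophage-like cells 125 to 220 CPM, pDC-like cells 98.9 to 135 CPM and NK-like cells 80.4 to 124 CPM. Neutrophil-like and macrophage-like cells differed beyond counting error in 3 libraries, but not in Ribavirin-OVA, where they had 227 and 220 CPM. ILC2-like cells, by contrast with their high Il10ra, had the lowest median level of the leukocyte groups, with a range of 13.3 to 54.0 CPM, and non-leukocytes had 26.8 to 66.6 CPM.

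The ratios of Il10rb with OVA over without were smaller than those of Il10ra in most groups. In macrophage-like cells they were 1.65 (1.58 to 1.71) and 1.70 (1.63 to 1.77), close to the values of Il10ra. T cell-like cells had ratios of 2.22 (1.95 to 2.53) and 1.98 (1.72 to 2.28), and the Foxp3-led clusters 1.95 (1.47 to 2.57) and 1.35 (1.02 to 1.77). In plasma cell-like cells Il10rb was 36.1, 50.2, 39.9 and 33.6 CPM, and the pairs went in opposite directions, with ratios of 1.39 (1.19 to 1.62) and 0.842 (0.725 to 0.979). Monocyte-like cells had ratios of 1.28 and 1.18, and neutrophil-like cells 1.77 and 1.15.

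**Figure D4:**
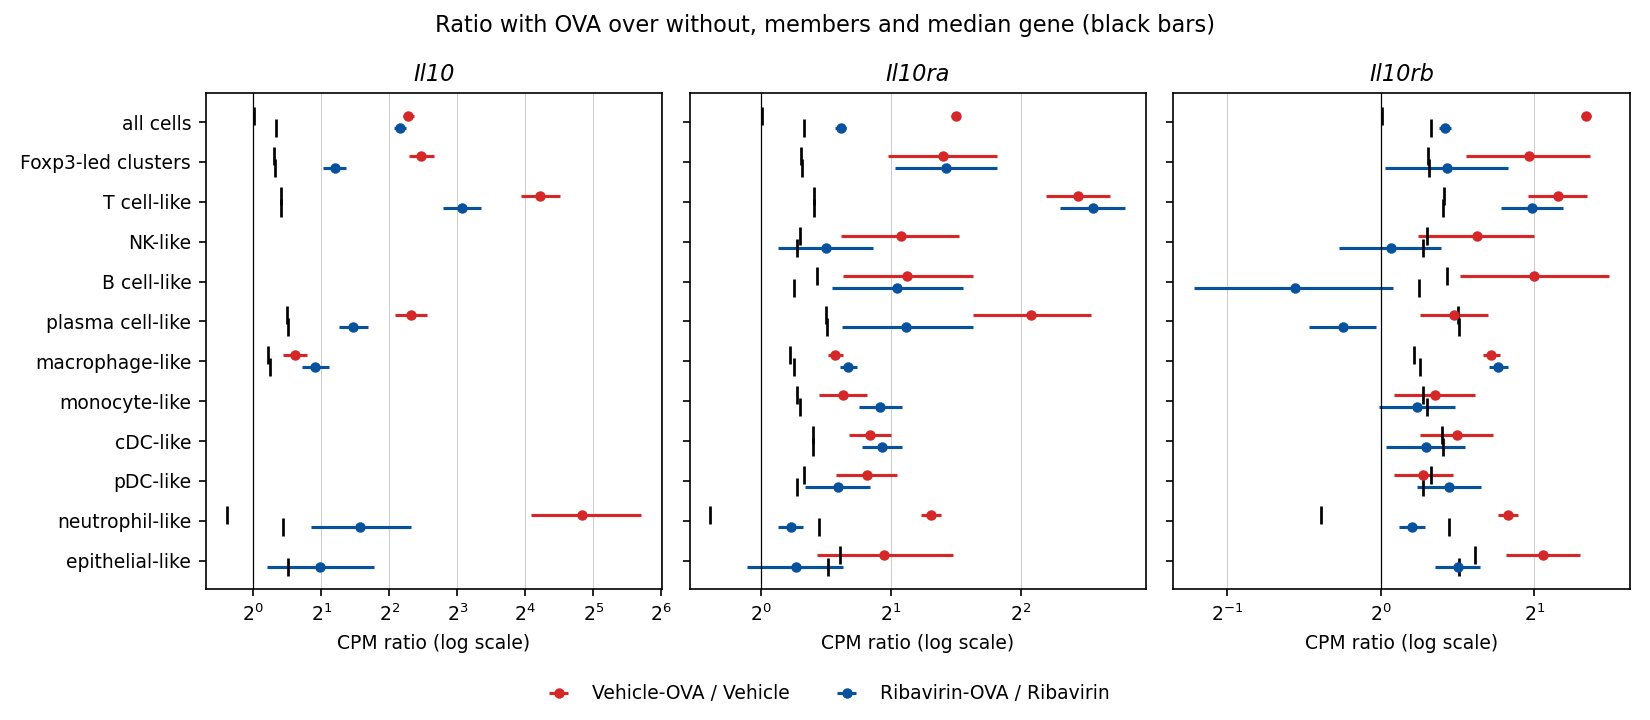
CPM ratio of the OVA library over its partner without OVA (horizontal axes, log scale) for Il10, Il10ra and Il10rb in all cells and in 11 cell groups, with 95% counting intervals; red marks the Vehicle pair, blue the Ribavirin pair, and short black bars the median gene of the same cells. Il10 ratios reach 28.5 in neutrophil-like cells of the Vehicle pair and are 1.53 and 1.88 in macrophage-like cells, and Il10ra is highest in T cell-like cells at 5.43 and 5.87.

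Since both chains are needed for signaling, their balance was compared between groups as Il10ra UMIs per Il10rb UMI. The 2 genes may be captured with unequal efficiency, so the value has a meaning between groups only. In macrophage-like cells it was between 0.885 and 0.979 in all libraries, and in neutrophil-like cells between 0.636 and 0.888. Monocyte-like and cDC-like cells had more Il10ra, with 1.8 to 2.88 and 1.76 to 3.07. The Il4 and Il13 cluster had 3.48 (2.60 to 4.70) in Ribavirin-OVA, and ILC2-like cells had 3.67 (1.9 to 7.63) in Vehicle, 4.26 (2.98 to 6.24) in Ribavirin-OVA and 13.8 (6.09 to 38.8) in Ribavirin. T cell-like cells moved with OVA from 0.360 to 0.880 and from 0.419 to 1.24, intervals that did not overlap in either pair. Plasma cell-like cells had 0.133 and 0.138 without OVA and 0.405 and 0.356 with it. In both groups the clusters behind these values differ between the libraries.

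UMIs of both receptor genes were found in the same cell in 41.6%, 61.3%, 43.3% and 65.0% of macrophage-like cells. Independent detection would give 39.8%, 58.9%, 40.9% and 62.3%, so that at this depth the chains were found together little more often than their separate frequencies give. In T cell-like cells both were found in 1.02%, 7.00%, 1.31% and 8.69%, and in plasma cell-like cells in 2.53%, 16.6%, 3.58% and 10.3%. Of the cells with an Il10 UMI, 63.0%, 78.7%, 63.0% and 79.8% of macrophage-like cells and 59.7% of the Il4 and Il13 cluster in Ribavirin-OVA also had an Il10ra UMI. In the Foxp3-led clusters this share was 20%, 38.6%, 18.2% and 34.6%, and in plasma cell-like cells 8.03%, 26.4%, 9.91% and 24.0%.

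The other genes of the pathway were read in macrophage-like cells, by lists of genes known to carry the IL-10 signal, to respond to it or to act on Il10. As for Il10, the ratios of all these lists compare different clusters with and without OVA. None of the 6 signal transduction genes was at least 2-fold higher or lower in either pair, where 3.40% and 2.91% of all genes tested in these cells were lower. Stat3, the main transcription factor downstream of the receptor, had ratios of 1.94 (1.88 to 2.01) and 1.52 (1.46 to 1.58), and Socs3, its target and a feedback inhibitor of cytokine signaling, had 1.06 and 0.708. Jak1 and Tyk2, the kinases bound to the receptor chains, had 1.42 and 1.39 and 1.45 and 1.58, and Socs1 had 1.28 and 1.3. The median log2 ratio of the list was 0.42 in both pairs, beside 0.22 and 0.25 for all genes.

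Of 16 genes that macrophages are known to raise on IL-10, a list that holds Il10 itself and shares Socs3 with the list above, 5 were at least 2-fold higher and 0 lower in the Vehicle pair, and 2 were higher and 1 lower in the Ribavirin pair, where 8.99% and 7.30% of all genes tested in these cells were higher and 3.40% and 2.91% lower. Cd163, a scavenger receptor gene, had 20.3, 180, 13.5 and 223 CPM, with ratios of 8.84 (8.23 to 9.50) and 16.5 (15 to 18.2). It was among the 10 leading genes of the cluster led by Ccl24, Arg1 and Retnla, which had 31, 1912, 59 and 1264 cells. Ddit4, an inhibitor of mTORC1 signaling, had ratios of 7.48 and 3.34. These 2 genes were higher in both pairs, whereas others differed between them. Il1rn, which encodes the IL-1 receptor antagonist, had 201, 1224, 304 and 486 CPM and ratios of 6.08 and 1.60. Tnfaip3, an inhibitor of NF-κB signaling, had 1.95 and 1.00. Il4ra, a chain of the IL-4 and IL-13 receptors, had ratios of 2.59 and 1.79, and Il1r2, a decoy receptor for IL-1, had 2.38 and 0.563. Cd14, the co-receptor for lipopolysaccharide, had ratios of 1.12 and 0.422. The list medians were 0.76 and 0.31 on the log2 scale.

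Of the 14 tested among 15 transcription factors known to act on Il10, 3 were at least 2-fold higher in the Vehicle pair and 4 in the Ribavirin pair, and 0 were lower, beside the same shares of all genes. Egr2 had ratios of 3.58 and 3.72 and Bhlhe40 of 3.41 and 3.09, so both were higher in both pairs. Nfkb1, an NF-κB subunit, had 2.44 and 1.64, Irf4 had 1.58 and 2.98, and Maf had 1.5 and 2.02. Ahr, a receptor for aryl hydrocarbons, had 2.03 and 1.98 and was just under 2-fold once the pseudocount of 1 CPM was added. The list medians were 0.74 and 0.69. Of the 13 cytokine and receptor genes of the IL-10 family and its neighbors, 4 were tested, of which Il20rb was higher, with ratios of 6.75 and 6.69 from 41 and 28 UMIs without OVA, and Ifnlr1, the chain that pairs with IL-10Rβ for interferon lambda, was lower, with 0.383 and 0.4. Ifnar1 and Ifnar2, the chains of the type I interferon receptor, had 1.15 and 0.953 and 0.929 and 0.964. Il22, the cytokine that also signals through IL-10Rβ, stood over all cells at 21.6, 4.08, 10.4 and 5.50 CPM, so that unlike Il10 it was lower with OVA in both pairs. T cell-like cells held between 48.8% and 88.7% of its UMIs. Il22 was among the 10 leading genes of the Il17a-led cluster. That cluster had 2577, 339, 1196 and 362 of the 24332, 17231, 19548 and 8757 cells kept. The all-cell level of Il22 therefore also follows how common that cluster was, and the part of each was not tested.

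Cells with an Il10 UMI were then set beside cells of the same group and library without one, for 2 transcription factors known to act on Il10 in T cells. These cells are picked by the gene and are often deeper, for example with a median of 10849 against 9197 UMIs in macrophage-like cells of Vehicle, so the values are a description. Maf, which encodes c-Maf, was higher in the Il10 cells of the Foxp3-led clusters in every library, with ratios of 1.84, 2.00, 1.69 and 2.01, and in those of T cell-like cells, with 1.94, 2.45, 1.69 and 2.35. In the Il4 and Il13 cluster of Ribavirin-OVA, the ratios were 1.49 (1.35 to 1.64) for Maf and 2.01 (1.18 to 3.63) for Prdm1, over 72 cells with and 26 without an Il10 UMI. In macrophage-like cells the ratios of Maf were 2.11, 1.27, 1.85 and 1.36, larger without OVA than with it. Prdm1, which encodes Blimp-1, had ratios of 1.35, 2.18, 1.75 and 2.22 in the Foxp3-led clusters and of 2.45, 2.24, 1.75 and 2.27 in T cell-like cells. In macrophage-like and plasma cell-like cells the ratios of Prdm1 lay between 0.899 and 1.11, with intervals that all held 1. In the Foxp3-led clusters of Vehicle the interval of Prdm1, 0.999 to 1.79, also held 1.

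**Figure D5:**
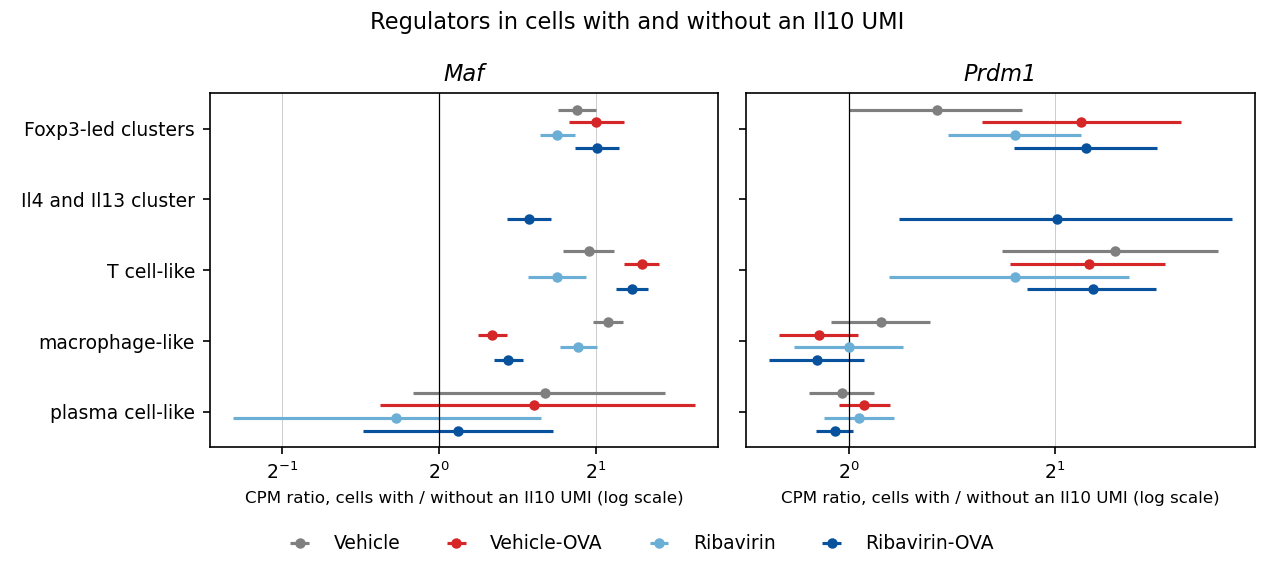
CPM of Maf and of Prdm1 in cells with an Il10 UMI over cells without one (horizontal axes, log scale), by cell group and library, with 95% counting intervals. Maf lies above 1 in the 2 groups with T-cell genes that are shown for all libraries and in macrophage-like cells, whereas Prdm1 lies above 1 in the T-cell groups but between 0.899 and 1.11 in macrophage-like and plasma cell-like cells.

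The genes most like each member were sought over 53 profiles of 16 groups by library, as Pearson's r of log2(CPM + 1) across 13121 genes. The profiles share libraries and differ in depth, so the values are a description. For Il10 they were Tnfrsf8 (r = 0.80), Samd11 (0.79), Ciapin1 (0.78), Ctla4 (0.76) and Sdf4 (0.72). Of these, Tnfrsf8 and Ctla4 encode receptors of activated T cells. For Il10ra they were Hcls1 (0.85), Dennd4b (0.85), Laptm5 (0.84), Vav1 (0.84) and Myo9b (0.84), of which Hcls1, Laptm5 and Vav1 are known from hematopoietic cells in general. For Il10rb they were Tmem189 (0.88), Rnf149 (0.85), Grina (0.84), Snx18 (0.83) and Ccl4 (0.83). Over the same profiles r was 0.61 between Il10ra and Il10rb, 0.17 between Il10 and Il10ra and 0.12 between Il10 and Il10rb.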

How the data were processed

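The deposited values were UMI counts per gene and cell barcode, made by the authors from 10x 3′ libraries with Cell Ranger 5.0.0 on mm10, per the submitters' processing notes. Counts were used as deposited. A cell was kept if it had 200 genes or more, 500 UMIs or more and a mitochondrial share below 10%, and 0.681% to 5.42% of these were removed per library as doublets by a Scrublet-like score. The automatic threshold failed for Vehicle-OVA, which took the mean of the other thresholds. No cell annotation was used. Cells were clustered jointly (2000 variable genes without the members, 30 principal components, 15 neighbours, Leiden resolution 1), giving 36 clusters, of which 2 that merged unlike cells were split again, giving 51. Clusters were named from at least 3 detected markers of a class. The splitting, and the groups called by leading genes, were settled after the clusters were seen.

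UMIs were summed per group and library, with Poisson intervals for levels, Clopper-Pearson intervals for shares and conditional binomial intervals for ratios (95%). A gene entered the share past 2-fold with at least 50 UMIs over a pair and a pseudocount of 1 CPM. The level or share of a count of 0 was limited by 3 counts. Groups under 50 cells were left out of the order of levels. Shares of cells with a UMI were also taken after thinning each cell to 1000 UMIs. The leading class of the design was read as the marker-named group with the most Il10 UMIs, macrophage-like cells. Named genes were the members, up to 6 per list with the largest ratios, and the 5 genes most like each member. Some further genes were named after their values were seen: the leading genes of clusters, Maf and Prdm1 in cells with an Il10 UMI, and Il22, Il19, Il20rb and Il22ra2 over all cells. The members and lists were chosen with earlier results of these data known. Coordinates and exons are from GENCODE M21 (GRCm38). The scripts were tested on simulated data and run with Python 3.11.15, scipy 1.17.1, scikit-learn 1.9.0 and leidenalg 0.10.2. No p-value was computed, since each group has 1 library. The values of 1 gene of the signal transduction list are not reported here.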

Additional observations from a re-analysis of the deposited data

Results flagged for a closer look

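Il10 in epithelial-like cells went in opposite directions with OVA in the pairs, with a ratio of 0.236 (0.0717 to 0.609) for Vehicle-OVA over Vehicle and 1.98 (1.16 to 3.41) for Ribavirin-OVA over Ribavirin. These rest on 32 and 5 UMIs in the Vehicle pair and 29 and 31 UMIs in the Ribavirin pair, and 24 of the 32 UMIs of Vehicle lay in 1 cell. Il10rb in plasma cell-like cells had a ratio of 1.39 in the Vehicle pair and 0.842 in the Ribavirin pair, from 526 and 252 UMIs without and with OVA in the former and 340 and 365 in the latter. Both were marked because the counting intervals of the pairs lay on opposite sides of 1, and with 1 library per group the difference between the pairs was not tested.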

How the results depend on the processing

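Values are log2 ratios unless given as percentages. Where cells at or over 5% mitochondrial UMIs were left out, Il10 summed over all cells was 1.98 in the Ribavirin pair (2.16 as reported) and -0.28 for Ribavirin-OVA over Vehicle-OVA (-0.16). As the mean of single-cell CPM, Il10 over all cells was 0.12 for Ribavirin over Vehicle (-0.04) and -0.031 for Ribavirin-OVA over Vehicle-OVA, and in macrophage-like cells Il10 was 1.04 and 1.53 in the Vehicle and Ribavirin pairs (0.62 and 0.91) and Il10rb 0.85 and 0.91 (0.72 and 0.76). In the same setting Il10ra and Il10rb over all cells changed sign for Ribavirin over Vehicle, to 0.30 and 0.13 from -0.05 and -0.10. With classes set by marker UMIs of single cells, Il10ra in macrophage-like cells of the Ribavirin pair was 0.74 (0.67). The share of the Il10 UMIs in macrophage-like cells was 35.9% in Vehicle with doublets kept (39.7%) and 12.4% in Ribavirin-OVA with the 5% limit (10.9%).

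Other alternatives were chosen after seeing the data. Without neutrophil-like cells Il10 over all cells was 2.44 in the Vehicle pair (2.28) and -0.30 for Ribavirin-OVA over Vehicle-OVA. Without the Il4 and Il13 cluster it was 1.89 and 1.53 in the Vehicle and Ribavirin pairs and -0.40 for Ribavirin-OVA over Vehicle-OVA, and without both it was 1.88, 1.51 and -0.38. In T cell-like cells without the cluster led by Tnfsf8 and Il21, Il10 was 3.43 and 2.20 in the Vehicle and Ribavirin pairs (4.22 and 3.07). Without neutrophil-like cells Il10rb was 0.84 in the Vehicle pair (1.34). The share of the Il10 UMIs in the Foxp3-led clusters was 11.2%, 10.9% and 10.8% in Vehicle-OVA (12.9%) with the 5% limit, doublets kept and at least 2000 UMIs per cell, and 18%, 10.6% and 11.5% in Ribavirin-OVA (13.2%) with the 5% limit, at least 2000 UMIs and Leiden resolution 0.5. The share in the Il4 and Il13 cluster was 20.7% in Vehicle-OVA with the 5% limit (24.3%), and 23.3%, 38.9% and 38.4% in Ribavirin-OVA (36.3%) in the last 3 settings. The causes of these differences were not tested. The settings with other cell limits or with doublets kept also clustered the cells again, so shares can differ through cells left out, added or regrouped.

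Of the main values under alternatives, 79 moved by less than their counting interval (counts of genes by less than 1.5 times) and 29 moved by more. No replicate could be left out. No paired analysis was run, since each group has 1 library and the labels give no replicate number. The precision is limited by the number of cells as well as by depth, with 50% of the Il10 UMIs of a library in 50 to 76 cells.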

Other observations

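Il19, the neighbor of Il10 on chromosome 1 and a cytokine of the same family, had 5, 50, 12 and 5 UMIs over all cells of Vehicle, Vehicle-OVA, Ribavirin and Ribavirin-OVA, and 60% of the 50 lay in neutrophil-like cells. Il20rb, a receptor chain for IL-19, IL-20 and IL-24, had 1.35, 3.67, 1.3 and 3.04 CPM over all cells, and macrophage-like cells held 45.5% and 38.8% of its UMIs in the libraries with OVA. No UMI of Il20 was found in any library. Il22ra2, which encodes a soluble IL-22 binding protein, stood at 1.58, 1.52, 1.22 and 1.12 CPM.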
